A study of Mus musculus with 13 samples.

Results

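The 38 Hox genes described here are the homeobox genes of the 4 mammalian Hox clusters. They are chosen by name, and no measured value enters that rule, though earlier results of these data were known when it was set. The Hoxa cluster on chromosome 6 held 10 of them, the Hoxb cluster on chromosome 11 held 10, the Hoxc cluster on chromosome 15 held 9 and the Hoxd cluster on chromosome 2 held 9, out of 21911 protein-coding genes with a window in the annotation. Their chromatin was read by single nuclei ATAC-seq (snATAC-seq), in which a transposase cuts open DNA inside each nucleus. The whole mouse kidneys came from 2 samples of newborn mice (P0, taken from 1-day-old animals according to the sample descriptions), 1 sample of 3-week-old mice (P21) and 2 samples of 8-week-old mice (P56). The P21 and P56 samples together are called adult, as in the study. No genotype, treatment or sex is given for these 5 samples, and a strain is named only for the mice of the separate single cell RNA experiment, which is not used here. P0 kidneys were lysed in a smaller volume of buffer than P21 and P56 kidneys, so stage and preparation cannot be told apart. Nothing states how many animals each sample held, so that every p-value below measures the spread between these samples only.

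Hox genes encode transcription factors whose order along the chromosome matches the order in which they are used along the body axis. Members at the same position of the different clusters (paralogs, which share a number) are the most alike. In the kidney the paralogs of group 11 act in the mesenchyme that surrounds the ureteric bud and are needed for its outgrowth, and nephron progenitors arise from that mesenchyme. The Hoxb7 promoter is a standard tool to mark the ureteric bud and the collecting duct that grows from it. HOX proteins bind DNA together with cofactors of the TALE class, the PBX and MEIS proteins. Polycomb and Trithorax proteins hold Hox genes closed or open once their pattern has been set.

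Gene activity here is the number of open calls in a window (the gene body plus 2 kb upstream) per 1000000 open calls of all nuclei of one cell type in one sample (CPM). An open call is a nucleus with at least 1 fragment in a peak. The 5 samples held 3361 to 7129 nuclei with a median of 3371 to 6737 open peaks each, and the 2 P0 samples held 39508633 and 38953624 open calls in all. The 13 cell types are the authors' annotation, and 19 of 20 markers named in the study led in the cell type they were named for (Cited1, named for nephron progenitors, was highest in podocytes and second in nephron progenitors). The authors used these markers to name the cell types, so this count is no independent check of the annotation. Nuclei labelled nephron progenitors were few in adult kidneys: 1032 and 1005 at P0 against 52 at P21 and 90 and 53 at P56. The adult nuclei of that label were lower in Six2, the transcription factor that keeps nephron progenitors undifferentiated, with a log2 difference (P0 minus adult) of 5.79 ± 0.6 (SE). Its adult sums rest on these few nuclei and their open calls are not given, so the size of this difference is no bound. Whether the P0 and adult nuclei of this label are the same kind of cell was not tested. A stage difference under this label cannot be told apart from a difference in the cells it holds. The 2 P56 samples differed from each other more than the 2 P0 samples, with a chi-square per degree of freedom of 29.0 against 4.1 over gene windows.

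The 38 windows held 151 distinct peaks, and 86 of them were open in at least 10% of the nuclei of some cell type at P0. Peaks over a start codon reached a median of 19.3% of nuclei in their leading cell type (32 peaks), against 9.81% for the other 119 peaks. Of the 151 peaks, 37 lay in the windows of 2 or more Hox genes. The annotated transcripts of Hoxc5, Hoxa3 and Hoxd3 run across their neighbours, with windows of 52.0, 46.3 and 38.5 kb, so a value of these 3 genes includes peaks of the genes beside them. By CPM at P0, nephron progenitors led 37 of the 151 peaks, stroma 1 led 25, the distal convoluted tubule led 23 and principal cells led 15, while immune cells led 1. The same shares over all peaks were not counted, so these counts do not show a trait of Hox peaks. No minimum of open calls was set for a lead, and the distal convoluted tubule had 51 and 57 nuclei at P0.

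Peaks differed in how far they were restricted to one cell type. The following were picked after their values were seen, as the peaks of the Hoxa, Hoxb and Hoxc clusters with the highest ratio of the leading cell type to the next at P0. Only peaks open in at least 10% of the nuclei of their leading cell type were ranked. An intronic peak of Hoxa3 (chr6:52170747-52171302) was open in 34 and 36.2% of endothelial nuclei of the P0 samples, and in 10.4, 9.55 and 13.7% of those of the P21 and the 2 P56 samples. By CPM the peak stood at 47.1 and 53.9 in endothelial cells at P0 and 36.5, 35.8 and 46.4 in adult, a smaller gap. Endothelial nuclei had a median of 6874.5 open peaks at P0 and 2347 in adult, and the part of depth in the shares was not tested. At P0 the Hoxa3 peak averaged 50.5 CPM in endothelial cells and 7.7 CPM in stroma 1, the cell type with the next highest value. An intronic peak of Hoxc4 (chr15:103024286-103024718), 10005 bp from the start codon, was open in 10.4 and 11.5% of nephron progenitors at P0 and in 0, 0 and 0% in adult kidneys. Its P0 average was 15.9 CPM in nephron progenitors and 2.63 CPM in the distal convoluted tubule, the next highest. The latter rests on 2 open nuclei in P0 sample 1 and 0 in P0 sample 2. The peak over the Hoxb2 start codon (chr11:96351543-96352414) was open in 17.8 and 17.9% of stroma 1 nuclei at P0. Its P0 averages were 29.8 CPM in stroma 1 and 17.6 CPM in nephron progenitors, a much smaller gap than that of the other 2 peaks.

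The central 300 bases of these peaks (build GRCm38, plus strand, read from the reference genome) are shown because each had the highest ratio of the leading to the next cell type among the ranked peaks of its cluster. The ranked peak with the highest ratio in the Hoxd cluster lies over an untranslated part of Hoxd12 and is not shown. Capitals mark a match to the motif that HOX proteins bind together with PBX (TGATTNAT on either strand); a sequence without capitals held no match to it.
Hoxa3 intron, endothelial peak, chr6:52170875-52171174: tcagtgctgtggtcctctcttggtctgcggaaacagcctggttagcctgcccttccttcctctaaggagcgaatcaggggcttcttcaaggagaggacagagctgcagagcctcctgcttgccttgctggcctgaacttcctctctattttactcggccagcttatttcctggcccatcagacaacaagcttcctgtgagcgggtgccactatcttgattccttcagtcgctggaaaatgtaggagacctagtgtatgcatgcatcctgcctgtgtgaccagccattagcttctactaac
Hoxc4 intron, nephron progenitor peak, chr15:103024353-103024652: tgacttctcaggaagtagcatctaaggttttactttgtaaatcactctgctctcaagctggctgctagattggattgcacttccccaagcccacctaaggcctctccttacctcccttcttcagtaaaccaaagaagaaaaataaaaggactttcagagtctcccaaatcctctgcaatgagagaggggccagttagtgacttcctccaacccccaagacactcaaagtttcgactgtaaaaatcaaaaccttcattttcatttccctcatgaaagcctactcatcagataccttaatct
Hoxb2 coding sequence, stroma 1 peak, chr11:96351829-96352128: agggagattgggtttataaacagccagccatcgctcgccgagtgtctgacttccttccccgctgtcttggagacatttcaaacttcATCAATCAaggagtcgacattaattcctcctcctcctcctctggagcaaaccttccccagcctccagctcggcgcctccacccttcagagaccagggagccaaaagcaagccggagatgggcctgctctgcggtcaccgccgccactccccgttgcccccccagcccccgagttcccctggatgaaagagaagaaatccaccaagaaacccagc

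The 250 bases upstream of a gene start are shown for Hoxd11, whose activity differed between P0 and adult in more cell types than that of any other member, and for Hoxd8, the member with the highest activity per kb as a mean over the 5 samples (Hoxb7 was higher at P0) (RefSeq promoters, GRCm38.p6, plus strand). Hoxd11 has 2 annotated starts, and the one inside the gene is shown because its upstream sequence holds the HOX with PBX motif, in capitals.
Hoxd11, chr2:74682073-74682322: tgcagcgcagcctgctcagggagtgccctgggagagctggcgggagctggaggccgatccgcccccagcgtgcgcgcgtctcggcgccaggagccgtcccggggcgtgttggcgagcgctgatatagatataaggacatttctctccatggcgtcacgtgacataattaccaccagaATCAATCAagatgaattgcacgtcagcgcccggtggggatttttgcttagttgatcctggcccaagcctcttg
Hoxd8, chr2:74704365-74704614: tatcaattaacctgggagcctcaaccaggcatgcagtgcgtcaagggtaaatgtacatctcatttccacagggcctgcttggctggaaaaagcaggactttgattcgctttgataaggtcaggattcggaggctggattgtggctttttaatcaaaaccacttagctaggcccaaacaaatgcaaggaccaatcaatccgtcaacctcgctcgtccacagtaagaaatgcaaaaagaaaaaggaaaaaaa

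Over all 151 peaks, the central 300 bases held TGATTNAT in 7.28% (95% Wilson interval 4.12 to 12.6%), against 5.55% of all 300693 peaks. The MEIS motif TGACAG was in 9.27% (5.6 to 15.0%) of the Hox peaks and in 22.5% of all peaks. The CTCF core motif, bound by the factor that separates chromatin domains, was in 3.31% (1.42 to 7.52%) against 3.21%. Both strands were searched, and TGATTNAT and TGACAG can overlap. The RefSeq table held 24 promoters of 22 of the members and none for the other 16. In the 250 bases before the start, TGATTNAT was in 2 of the 24 (8.33%) against 2.82% of all 32851 promoters, TGACAG in 2 (8.33%) against 15.9%, and the CTCF core in 0 against 2.07%. Hox promoters were rich in CpG, with a median of 12.5 CpG per 250 bases against 6.0 over all promoters, and a median GC content of 58.6% against 52.4%. A match is a run of letters and not a measured binding site.

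Scaled to window length, Hox activity lay above that of the typical gene. Genes of like window length were not compared, so the part of window length in this gap was not tested. The windows of Hoxd8 and Hoxb7 measured 5.32 and 5.54 kb. Per kb of window and over the 13 cell types and 5 samples, the median of the 38 members was 3.38 CPM per kb against 0.801 over all genes, where the 90th percentile was 4.51. The highest members were Hoxd8 at 8.43 ± 0.41 CPM per kb at P0 (mean ± SD, n = 2) and 11.1 ± 1.55 in adult (n = 3), and Hoxb7 at 9.65 ± 0.0196 and 10.1 ± 2.55. The second highest of the Hoxb and Hoxd clusters over all samples were Hoxb9 (7.33 ± 0.286 and 7.87 ± 0.999) and Hoxd9 (7.48 ± 0.0393 and 6.74 ± 0.251). In the Hoxa cluster Hoxa7 (6.24 ± 0.0326 and 7.75 ± 0.931) and Hoxa9 (6.51 ± 0.216 and 7.31 ± 1.42) were highest and did not differ beyond their SDs in adult. In the Hoxc cluster the highest were Hoxc10 (3.34 ± 0.106 and 3.66 ± 0.693) and Hoxc9 (3.35 ± 0.0229 and 3.47 ± 0.27), which did not differ beyond their SDs either and were below the 2 highest members of each other cluster. The lowest member of each cluster belonged to group 12 or 13. Hoxc12 stood at 0.325 ± 0.00626 and 0.333 ± 0.149 CPM per kb, Hoxb13 at 0.559 ± 0.0697 and 0.289 ± 0.228, Hoxa13 at 0.96 ± 0.165 and 0.598 ± 0.117, and Hoxd13 at 0.992 ± 0.146 and 0.632 ± 0.0145.

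**Figure D1:**
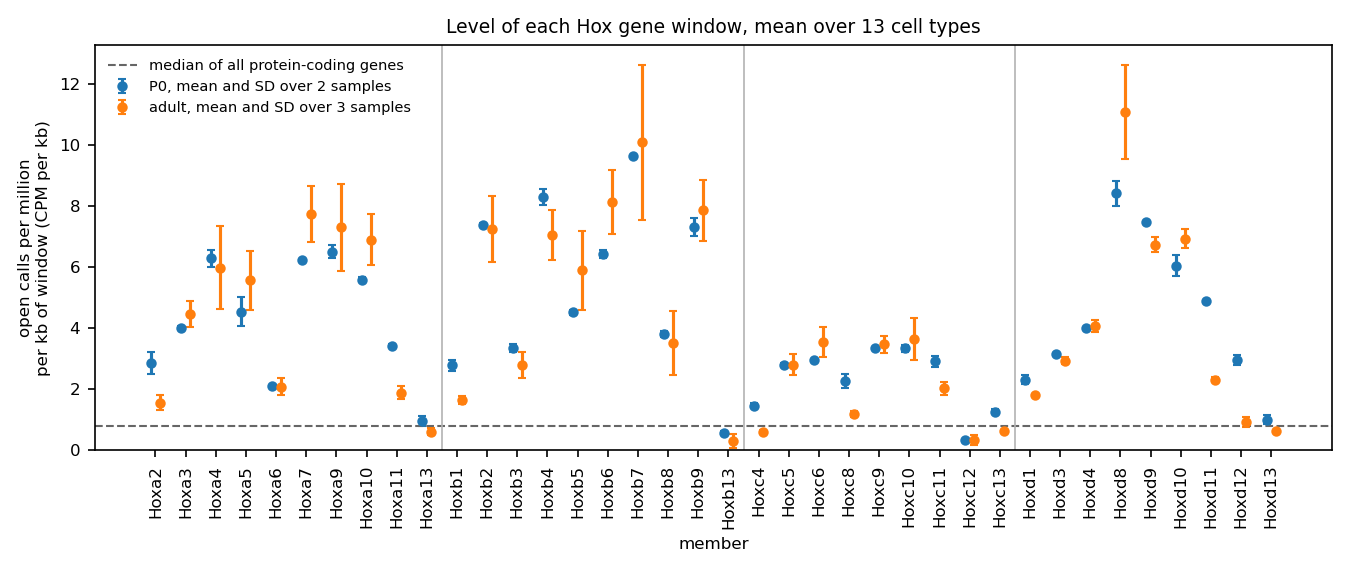
Gene activity of each of the 38 Hox genes in CPM per kb of window (y axis), averaged over 13 cell types, for P0 (blue, mean ± SD of 2 samples) and adult (orange, mean ± SD of 3 samples), beside the median of all protein-coding genes (dashed line). Hoxd8 and Hoxb7 stand highest, and Hoxc12, Hoxb13, Hoxa13 and Hoxd13 sit near or below 1 CPM per kb.

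The 4 clusters were used unequally by the cell types. The sum over all distinct peaks of the Hoxa cluster was 112 and 125 CPM in principal cells of the P0 samples, while the Hoxb cluster summed to 522 and 567 CPM there. Principal cells, the water-reabsorbing cells of the collecting duct, thus held Hoxb and Hoxd peaks open and Hoxa and Hoxc peaks mostly closed, with Hoxc at 62 and 67.1 and Hoxd at 363 and 374 CPM. The same order was seen in the 3 adult samples, with 189, 82.8 and 238 CPM for Hoxa, 579, 480.0 and 615 for Hoxb, 51.5, 40.8 and 88.7 for Hoxc and 351, 380.0 and 443 for Hoxd. Hoxa over Hoxb in principal cells was -2.20 on the log2 scale at P0 and -1.84 (range -2.54 to -1.37) in adult.

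Nephron progenitors at P0 held all 4 clusters open at like levels, with Hoxa at 581 and 555, Hoxb at 494 and 490.0, Hoxc at 485 and 450.0 and Hoxd at 456 and 446 CPM. In the adult nuclei of that label the Hoxc sums were 264, 235 and 241 CPM and the Hoxd sums 238, 250 and 244 CPM, below every P0 value, while Hoxa (748, 503 and 600.0 CPM) overlapped its P0 range. Podocytes, the filter cells of the glomerulus, had more Hoxa than Hoxb. Their Hoxa peaks summed to 462 and 472 CPM and their Hoxb peaks to 257 and 267 CPM at P0, a log2 ratio of 0.83 that was 1.31 (range 1.18 to 1.54) in adult. Endothelial cells also had more Hoxa (488 and 506 CPM) than Hoxb (341 and 350.0 CPM) and little Hoxc (78.7 and 92.9 CPM). Their log2 ratio of Hoxa over Hoxb was 0.53 at P0 and 0.59 in adult, below the 0.6 and 0.99 of stroma 2. Hoxa also exceeded Hoxb in PCT, PST, stroma 1 and nephron progenitors at P0. In the proximal convoluted tubule (PCT) Hoxd was low, at 119 and 105 CPM at P0 and 135, 137 and 137 CPM in adult. Hoxc in PCT (130 and 124 CPM) and Hoxd in the proximal straight tubule (125 and 129 CPM) were about as low at P0. Immune cells, which come from the blood, had the lowest P0 sums of all 13 cell types, at 91 ± 32.3 CPM for Hoxa, 74.2 ± 21.2 for Hoxb, 24.5 ± 2.45 for Hoxc and 41.7 ± 18.2 for Hoxd (mean ± SD, n = 2). C1qb, a complement gene of macrophages and a marker that the authors used to name these nuclei, was highest in them.

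**Figure D2:**
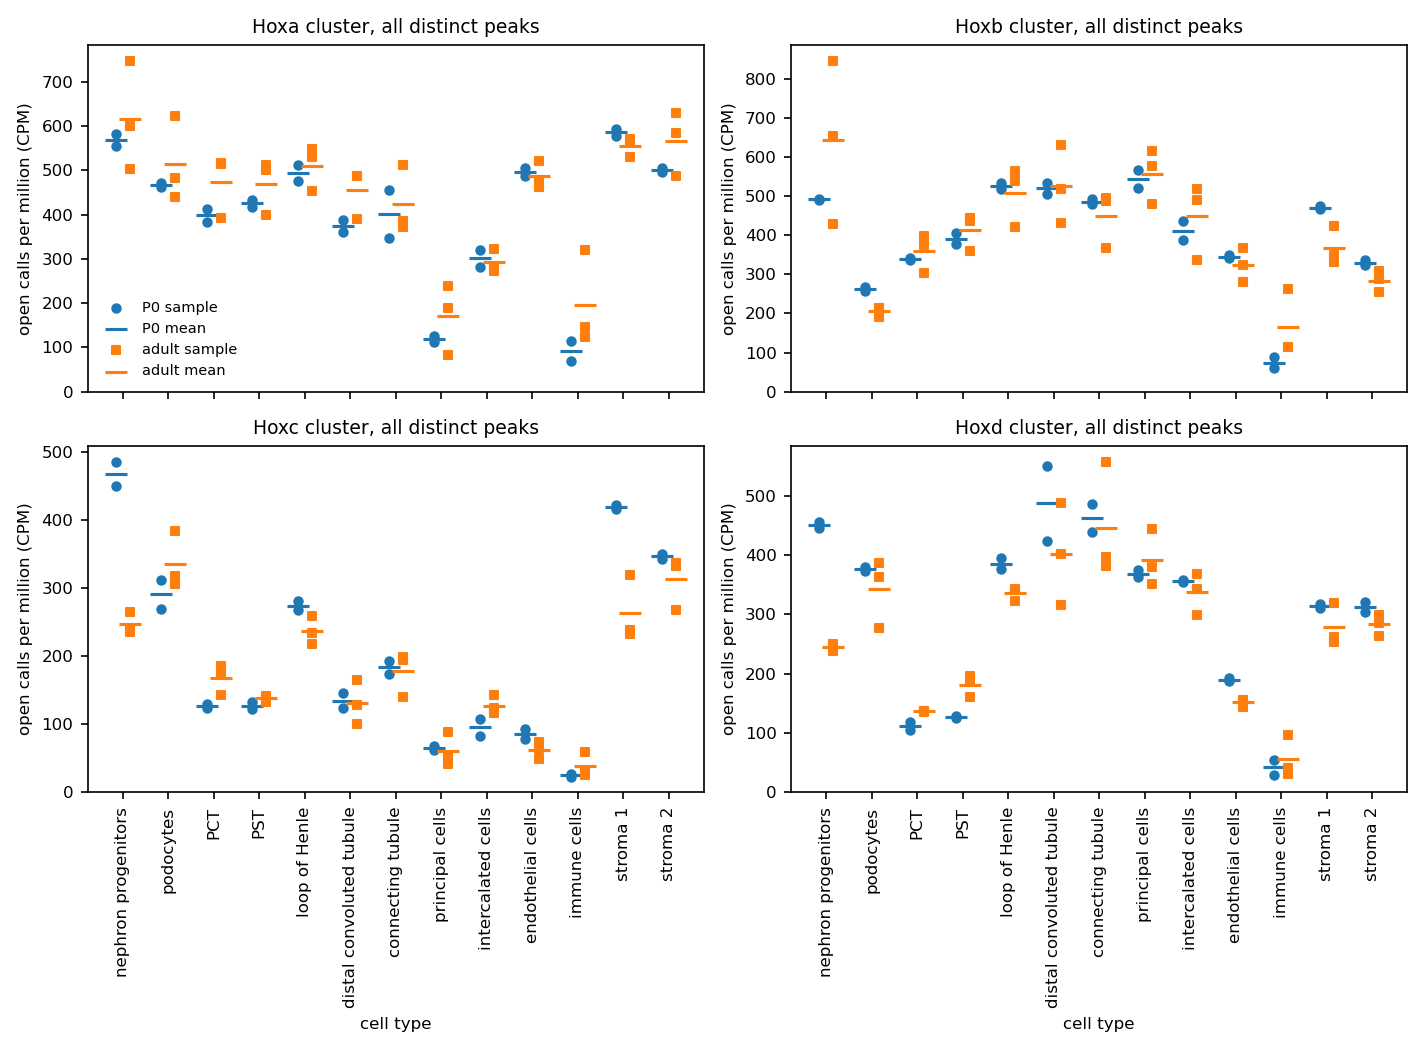
CPM (y axis) summed over the distinct peaks of each Hox cluster in each of 13 cell types (x axis), with 1 point per sample (P0 and adult) and the mean of each stage. In principal cells the Hoxa and Hoxc panels are low while the Hoxb panel is high, and immune cells are low in all 4 panels.

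To ask where each gene was most open, every cell type was compared with the mean of the other 12 by edgeR's quasi-likelihood test with Benjamini-Hochberg adjustment, at P0 (26 sums) and in adult (39 sums) apart. The cell types had been defined on the same nuclei, so a call (adjusted p under 0.05) ranks genes and does not test a cell type. At P0, 37 of the 38 members passed the filter on low counts (all but Hoxc12), and 199 of 481 pairs of a member and a cell type were called higher (41.4%, against 21.1% over all genes) and 94 lower (19.5% against 16.1%). In adult 33 members passed (all but Hoxa13, Hoxb13, Hoxc12, Hoxd12 and Hoxd13), and 131 of 429 pairs were called higher (30.5% against 17.8%) and 82 lower (19.1% against 14.7%). With each adult sample left out in turn, 86 of the 131 higher calls and 38 of the 82 lower ones held throughout. At P0 leaving out a sample leaves no spread between samples to fit, so the P0 calls could not be checked in this way. Immune sums near 0 weigh on the mean of the other cell types. Without immune cells, an alternative chosen after seeing the data, 152 pairs were called higher and 103 lower at P0 (34.2% and 23.2%, against 20.8% and 17.3% over all genes), and 110 and 85 in adult (27.8% and 21.5%, against 18.2% and 15.8%). In single cell types the all-gene shares moved by at most 3.5 percentage points (higher) and 5.1 (lower) at P0, and 0.9 and 1.9 in adult, when immune cells were left out. Counts without immune cells follow below in the words "without immune cells", and log2 differences are given beside the values they rest on.

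**Figure D3:**
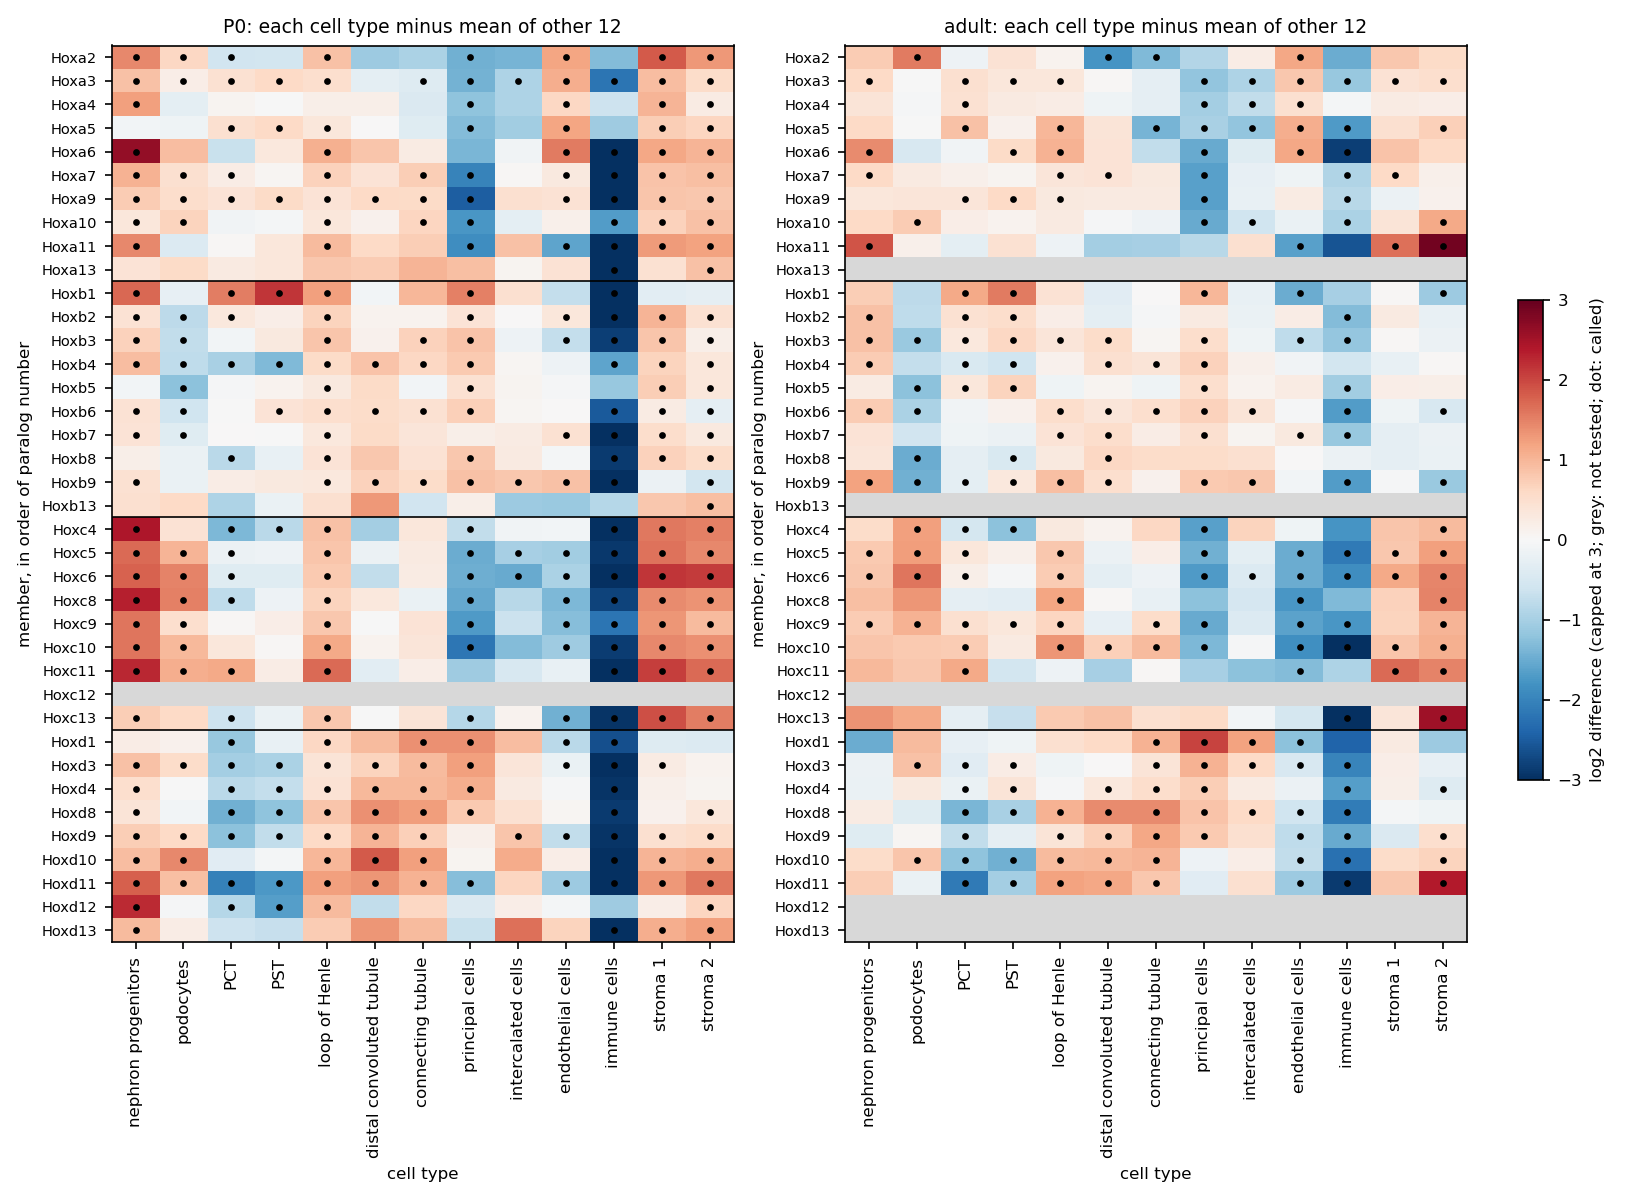
Log2 difference of each Hox gene (rows) in each cell type (columns) against the mean of the other 12, at P0 and in adult, with a dot for a call and grey for a gene not tested (colours capped at 3). Nephron progenitors, loop of Henle and stroma are mostly positive at P0, principal cells are mostly positive for Hoxb and for Hoxd1, Hoxd3, Hoxd4 and Hoxd8 and mostly negative for Hoxa and Hoxc, and immune cells are negative.

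Most members were called higher in nephron progenitors and stroma at P0. In nephron progenitors 31 of 37 members were called higher (all genes 31.5%) and 0 lower (23.9%), and without immune cells 27 and 0. The median log2 difference of the members there was 0.87 against 0.01 over all genes, and 0.5 without immune cells. Stroma 1 had 29 higher (25.7%) and 0 lower (23.2%), and without immune cells 26 and 3. Stroma 2 had 31 higher (32.4%) and 2 lower (28.4%), and without immune cells 27 and 6. All 8 tested Hoxc genes were called higher in each of these 3 cell types, with and without immune cells. Stroma is the connective tissue between the tubules, and its 2 clusters carry no further name in the annotation.

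Hoxa6 had the largest difference in nephron progenitors at P0, with 30.4 and 28.2 CPM in the 2 samples and a median of 8.18 CPM over the other cell types. Its log2 difference was 2.64 ± 0.16 (SE), and 2.02 without immune cells, where its sums were 0. Hoxc6, a central gene of the Hoxc cluster, led in both stroma clusters, with 115 and 116 CPM in stroma 1 and 110.0 and 103 CPM in stroma 2 against a median of 23.4 CPM over the other cell types. In proximal tubules the same gene stood at 25.2 and 21.5 CPM (PCT) and in principal cells at 11.6 and 12 CPM. Its log2 differences were 2.14 ± 0.08 and 2.10 ± 0.06, and 1.91 and 1.88 without immune cells. Hoxc8 was the leading call in podocytes with 20.9 and 28.3 CPM (log2 difference 1.52 ± 0.22), though nephron progenitors were higher still with 38.7 and 37.4 CPM.

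The paralogs of group 11 had unlike patterns at P0. Hoxa11 (chr6:52242106-52245810, minus strand) stood at 35.3 and 36.1 CPM in nephron progenitors, 31.6 and 31.4 CPM in stroma 1, 31 and 25.7 CPM in stroma 2 and 28.8 and 26.6 CPM in the loop of Henle. The stroma 2 and loop of Henle samples overlapped, and both nephron progenitor samples lay above those of the other 3. In intercalated cells it was at 37.5 and 19.4 CPM, from 11 and 9 open calls, so that nephron progenitors were highest in P0 sample 2 and not in P0 sample 1. It was at 5.23 and 3.38 CPM in principal cells. Hoxc11 (chr15:102954427-102957708, plus strand) was highest in nephron progenitors with 37.8 and 35.3 CPM, and it was the largest call of the loop of Henle (1.69 ± 0.18, and 1.0 without immune cells, with 27.6 and 25.6 CPM). Principal cells held 2.99 and 5.63 CPM of it. Hoxd11 (chr2:74679557-74687016, plus strand) was open in more of the tubule, with 97.1 and 92 CPM in nephron progenitors, 63.2 and 88.4 CPM in the distal convoluted tubule and 62.6 and 59.2 CPM in the connecting tubule. In PCT it was at 9.9 and 5.98 CPM.

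In adult kidneys the calls in these cell types were fewer. In the adult nuclei labelled nephron progenitors 12 of 33 members were called higher (7.9% of all genes) and 0 lower (2.28%). Stroma 1 had 7 (6.92%) and 0 (1.45%), and stroma 2 had 15 (23.3%) and 4 (20.1%). Without immune cells the counts were 10 and 0, 5 and 0, and 14 and 8. Adult sums rested on fewer nuclei in nephron progenitors and both stroma clusters, so fewer calls there do not show less difference. Hoxa11 was the leading call in adult stroma 2, with 41, 35.1 and 45.6 CPM in the P21 and the 2 P56 samples and a median of 6.43 CPM over the other cell types (log2 difference 2.90 ± 0.25). Stroma 2 was the highest cell type for Hoxa11 in each of the 3 adult samples. In the adult nuclei labelled nephron progenitors Hoxa11 was at 25.9, 24.4 and 19 CPM (1.88 ± 0.49), a call lost without P56 sample 1 (edgeR adjusted p = 0.0668). It was also lost after thinning every nucleus to 1000 open peaks (edgeR adjusted p = 0.266). The same held with peaks from 2 kb before to 500 bp past the gene start (0.0796) or near the start codon alone (0.0789). Hoxc11 led in stroma 1 with 30.6, 37 and 16.8 CPM (1.69 ± 0.37), a call lost without P56 sample 1 (edgeR adjusted p = 0.121).

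In podocytes every Hoxb call was a lower one. At P0 15 members were called higher in podocytes (16.5% of all genes), and they were 5 Hoxa, 6 Hoxc and 4 Hoxd genes. The 6 members called lower (17.0%) were all Hoxb genes. Without immune cells the counts were 9 higher (1 Hoxa, 4 Hoxc and 4 Hoxd) and 12 lower (9 Hoxb, 1 Hoxa and 2 Hoxd). In adult 8 were called higher (8.28%) and 5 lower (5.85%), the lower ones again all Hoxb, and without immune cells 8 and 7. Of the 5 lower calls, that of Hoxb9 alone held with each adult sample left out. Hoxb7 was among those called lower at P0, with 45.8 and 39.2 CPM in podocytes at P0 and 46.7, 31.6 and 37.1 CPM in adult, against 50.8 and 55.9 CPM at P0 and 73.6, 62.9 and 84.4 CPM in adult in principal cells. In principal cells Hoxb7 was called higher in adult and not at P0. Its highest cell type was the distal convoluted tubule, in both P0 samples and in 2 of the 3 adult samples. Hoxc6 was the leading call in adult podocytes with 130.0, 124 and 128 CPM (log2 difference 1.60 ± 0.15), the highest cell type for this gene in every adult sample.

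After the proximal tubule come the loop of Henle, the distal convoluted and the connecting tubule, segments that adjust salt in the urine. In the loop of Henle 33 of 37 members were called higher at P0 (25.0% of all genes) and 0 lower (13.1%), with 23 and 0 without immune cells. In adult the counts were 18 (22.6%) and 0 (20.1%), and 17 and 1 without immune cells. The distal convoluted tubule had 10 higher (6.48%) and 0 lower (3.7%) at P0, and 13 (15.7%) and 1 (13.8%) in adult. Without immune cells these were 7 and 3, and 11 and 6. The connecting tubule had 14 (10.8%) and 1 (3.05%) at P0, and 11 (17.4%) and 2 (14.4%) in adult, and without immune cells 9 and 1, and 8 and 4. Of the higher calls at P0, Hoxd gave 6 of 10 in the distal convoluted tubule and 7 of 14 in the connecting tubule, and Hoxc gave none in either.

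Hoxd8 (chr2:74704615-74707933, plus strand) held the peak of the Hoxd cluster with the highest share of open nuclei, the only peak in its window. It was open in 70.6 and 64.9% of distal convoluted tubule nuclei at P0 and in 59.4, 30 and 77.4% in adult. By CPM it was 94.8 and 90.9 at P0 and 162, 101 and 128 in adult in the distal convoluted tubule, and in the connecting tubule 86.6 and 79.3 at P0 and 150, 107 and 122 in adult. In PCT it was 14.1 and 14.1 at P0 and 19.2, 18.5 and 17.9 in adult, below each value of both segments. The adult log2 differences were 1.42 ± 0.12 and 1.42 ± 0.13, and the calls held with each adult sample left out. Hoxd10 led the P0 calls of the distal convoluted tubule with 63.2 and 68.8 CPM (1.85 ± 0.28, and 1.06 without immune cells, where its sums were 0). When every nucleus was thinned to 1000 open peaks this call was lost (edgeR adjusted p = 0.879). Hoxd1, at the other end of the cluster, led in the connecting tubule with 19.4 and 18.9 CPM (1.37 ± 0.33; adjusted p after thinning 0.0925). In the loop of Henle the leading call in adult was Hoxc10, with 47.3, 37.3 and 54.5 CPM (1.33 ± 0.14), and in nephron progenitors at P0 Hoxc10 was 50.9 and 46.1 CPM.

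Proximal tubule cells, which reabsorb most of the filtrate, were low in several Hoxd genes at P0. In PCT 7 members were called higher (30.5% of all genes) and 15 lower (24.4%) at P0, 7 of the lower ones Hoxd, and without immune cells 4 and 22. In the proximal straight tubule (PST) the counts were 5 (20.9%) and 8 (11.2%), 6 of the lower ones Hoxd, and without immune cells 2 and 11. In adult PCT 13 were higher (31.6%) and 9 lower (32.6%), 6 of the lower ones Hoxd, and in adult PST 11 (30.6%) and 6 (30.5%). Hoxd3 and Hoxd4 were among the higher calls of adult PST, and Hoxd8, Hoxd10 and Hoxd11 among the lower ones. The Hoxd4 call (0.38 ± 0.09) held with each adult sample left out. Without immune cells the adult counts were 10 higher (31.4% of all genes) and 12 lower (33.4%) in PCT, and 7 (30.3%) and 10 (31.0%) in PST. Hoxb1, best known for its part in the hindbrain, was the leading call in both segments and at both stages, though that in PCT at P0 was lost after thinning every nucleus (edgeR adjusted p = 0.058). In PST it was at 26.6 and 31.2 CPM at P0 and 17.4, 19.4 and 14.6 CPM in adult, the highest of the 13 cell types in every sample. PCT held 18.3 and 20.9 CPM at P0 and 12.7, 15.2 and 11.2 CPM in adult, and podocytes 5.43 and 8.18 and 0, 8.43 and 0 CPM. The log2 differences in PST were 2.15 ± 0.30 at P0 (1.49 without immune cells, whose sums were 0) and 1.56 ± 0.22 in adult.

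Principal and intercalated cells make up the collecting duct. In principal cells 12 members were called higher at P0 (24.9% of all genes), 8 Hoxb and 4 Hoxd, and 16 lower (12.3%), 8 Hoxa, 7 Hoxc and Hoxd11. Without immune cells 11 were higher and 20 lower. In adult 12 were higher (14.1%), 7 Hoxb and 5 Hoxd, and 12 lower (6.49%), 7 Hoxa and 5 Hoxc, and without immune cells 11 and 12. Every Hoxb call was a higher one and every Hoxa and Hoxc call a lower one. Within Hoxd at P0, Hoxd1, Hoxd3, Hoxd4 and Hoxd8 were called higher, Hoxd11 lower, and Hoxd9, Hoxd10, Hoxd12 and Hoxd13 were not called. Of the group 9 paralogs, Hoxb9 was at 75.8 and 73.5 CPM at P0 and Hoxd9 at 31 and 29.3 CPM, while Hoxa9 was at 9.71 and 11.3 CPM and Hoxc9 at 7.84 and 11.3 CPM. Hoxa7 stood at 8.59 and 17.3 CPM in principal cells and at 92.4 and 88.9 CPM in nephron progenitors. The leading call in principal cells was Hoxb1 at P0 (19.8 and 19.1 CPM, log2 difference 1.52 ± 0.25, and 0.86 without immune cells, adjusted p after thinning 0.294) and Hoxd1 in adult (20.2, 28 and 16.9 CPM, 2.03 ± 0.29). Both genes lie at the end of the cluster that is used first in the embryo.

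Intercalated cells, which secrete acid or base and share their origin with principal cells, gave few calls. At P0 2 members were called higher (7.41% of all genes) and 3 lower (3.15%), and in adult 5 (14.0%) and 5 (6.87%). Without immune cells these were 0 and 4, and 4 and 8. Hoxa7 was at 51.2 and 49.6 CPM in intercalated cells at P0, above both values of principal cells. The leading call at P0, Hoxd9 with 58 and 43.2 CPM (0.83 ± 0.25), was lost without immune cells (edgeR adjusted p = 0.136). Hoxd1 led in adult with 9.92, 7.25 and 18.2 CPM (1.21 ± 0.34), a call lost without P56 sample 2 (edgeR adjusted p = 0.553). Whether the 2 cell types differ was not tested directly.

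In endothelial cells, which line the vessels, the members called higher were mainly Hoxa genes, while the share of members called higher was not above that of all genes. At P0 10 members were called higher (28.4% of all genes), Hoxa2 to Hoxa7, Hoxa9 and 3 Hoxb, and 12 lower (24.2%), 6 of them Hoxc. Without immune cells 7 were higher, 5 of them Hoxa, and 21 lower. In adult 6 were higher (27.7%), 5 of them Hoxa, and 15 lower (25.5%), 6 Hoxc and 6 Hoxd, and without immune cells 5 and 17. Hoxa6 led at P0 with 12.9 and 16.3 CPM (1.55 ± 0.27, and 0.91 without immune cells), below nephron progenitors. Hoxa2 led in adult with 12.7, 10 and 12.6 CPM (1.16 ± 0.29). Hoxa3, whose window holds the endothelial peak printed above, was at 303 and 311 CPM in endothelial cells at P0 and at 281 and 267 CPM in nephron progenitors.

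In immune cells 0 of 37 members were called higher at P0 (13.9% of all genes) and 31 lower (21.3%), and in adult 0 (11.4%) and 23 (11.6%). The immune sums were small, from 99 and 57 nuclei at P0, and 33 of the 38 members had 3 or fewer open calls in at least 1 of the 2 samples. Over both P0 samples, 7 members had 0 open calls (Hoxa6, Hoxa13, Hoxb1, Hoxc11, Hoxc12, Hoxd10 and Hoxd13), which allows up to 4.99 CPM at 3 open calls. Fitted differences against such sums are no bounds and are not given. The highest member was Hoxa3 with 28 open calls (46.6 CPM), followed by Hoxa10 with 14 (23.3 CPM) and Hoxc5 with 12.

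To ask what changed between P0 and adult, each cell type was fitted on its own over the 5 samples (edgeR's quasi-likelihood test, 2 P0 against 3 adult). Of 361 pairs of a member and a cell type tested, 67 were called higher at P0 (18.6%, against 13.9% over all genes) and 28 higher in adult (7.76% against 10.7%). A pair passes the filter on low counts when 2 samples are above its level, and 37 of the 361 passed through P0 alone (21 of the 67 calls), 16 through adult alone (1 of the 28), 306 in each stage (46 and 27) and 2 by samples of both together (no call). A pair that passed through 1 stage alone had to be high there, so the counts and medians by stage describe the pairs tested. For such pairs no fitted difference is given, except that of Hoxb9 in podocytes among the flagged results below. Given instead are their values, the open calls behind them and the adjusted p of the fit without the filter. In the fit without the filter every gene with an open call was tested. That fit called 68 of 492 pairs higher at P0 (13.8%, against 12.2% over all genes) and 35 higher in adult (7.11% against 9.43%), shares near those of all genes, and 20 of the 21 calls through P0 alone were called in it. The calls higher at P0 fell on 24 of the 37 members tested and those higher in adult on 14. These counts lean on single samples. Without P0 sample 1 they were 24 and 7, without P0 sample 2 32 and 4, without P56 sample 1 63 and 66, and without P56 sample 2 47 and 18. With every sample left out in turn, 19 of the 67 calls and 3 of the 28 held throughout, and 8 of those 19 had passed the filter through P0 alone. Thinning each nucleus to 1000 open peaks gave 11 and 3 calls, and DESeq2 gave 36 and 20. P0 nuclei had a higher median of open peaks than adult nuclei in each of the 13 cell types (in the loop of Henle 6911 against 3271), and the part of depth in these differences was not tested beyond the thinning.

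**Figure D4:**
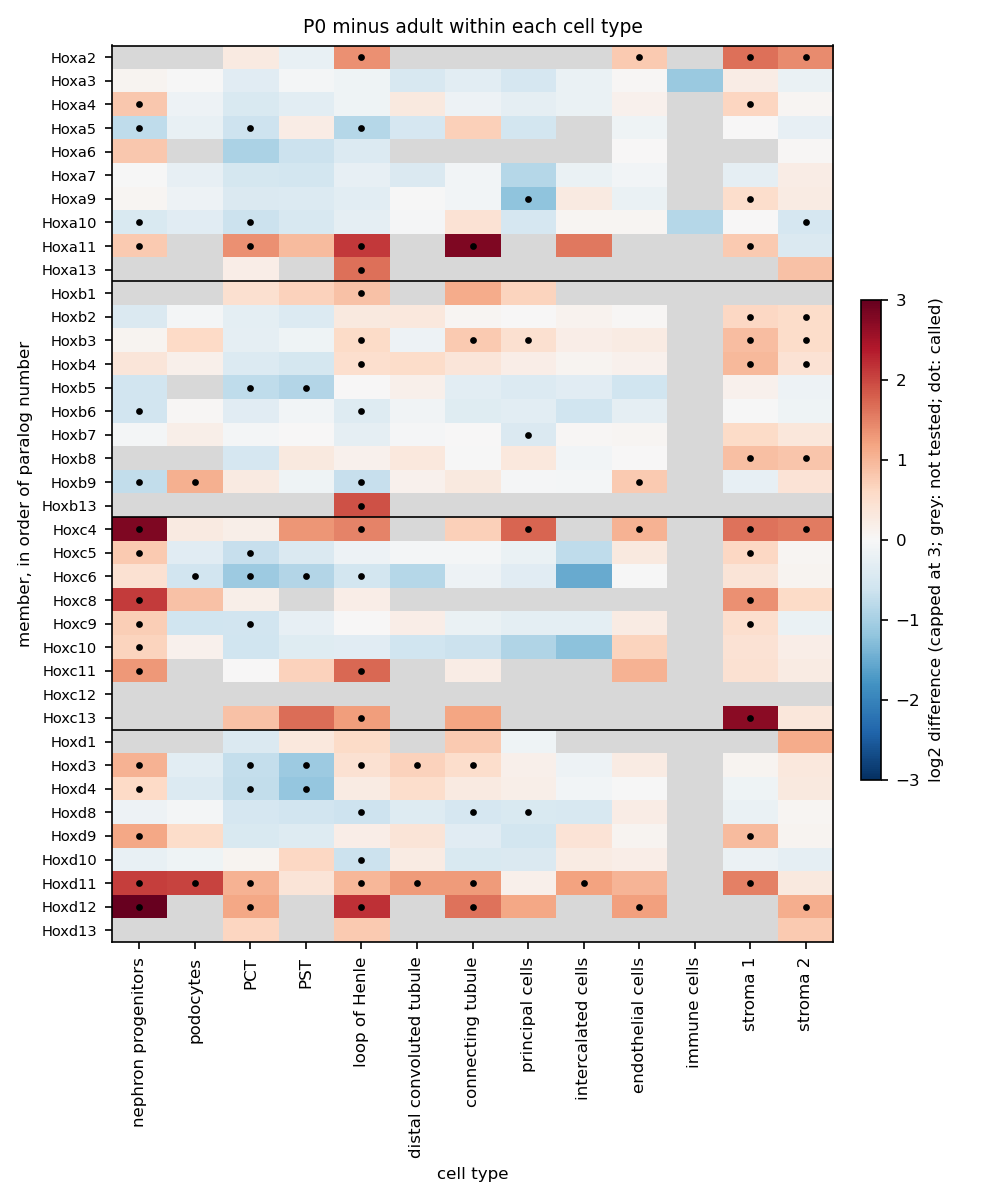
Log2 difference P0 minus adult of each Hox gene (rows) within each cell type (columns), with a dot for a call and grey for a pair not tested (colours capped at 3). The rows of paralog groups 11 and 12 are positive wherever they are called, and Hoxb5, Hoxc6, Hoxd3 and Hoxd4 are called higher in adult in both PCT and PST.

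The stage calls are given here by position in the clusters, beside 13.9% of the pairs of all genes called higher at P0 and 10.7% called higher in adult. Differences between the groups were not tested. In paralog group 11, 15 of 28 tested pairs were called higher at P0 and 0 higher in adult, with a median log2 difference of 1.03. Hoxd12, the one tested gene of group 12, was called higher at P0 in 6 of 7 cell types, and group 13 in 4 of 13 pairs. At the other end of the clusters, groups 2, 3 and 4 gave 6 of 18, 9 of 37 and 12 of 46 pairs higher at P0, and 0, 2 and 2 higher in adult. Group 1 gave 1 of 11 and 0. In the middle, groups 5, 6 and 7 gave 2 of 34, 0 of 30 and 0 of 24 pairs higher at P0 against 6, 6 and 1 higher in adult, with medians of -0.24, -0.32 and -0.07. Groups 8, 9 and 10 gave 4 of 28, 7 of 48 and 1 of 37 higher at P0, and 3, 4 and 4 higher in adult, with groups 8 and 9 close to the share of all genes at P0. Low members were tested in few cell types, and a low gene passes the filter mainly where 1 stage is high, so these counts describe the pairs tested and not the groups as wholes.

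Hoxd11 had the broadest difference, called higher at P0 in 8 of 12 cell types tested. In nephron progenitors it was at 97.1 and 92 CPM at P0 and 17.3, 18.3 and 35.3 CPM in adult, from 4, 6 and 13 open calls (edgeR adjusted p without the filter = 7.8e-13). Podocytes had 62.8 and 57.2 CPM at P0 and 15.6, 16.9 and 8.25 CPM in adult, from 3, 8 and 2 open calls (edgeR adjusted p without the filter = 8e-07). In both cell types the P0 samples lay above every adult sample, and both pairs passed the filter through P0 alone. In the loop of Henle (0.99 ± 0.22), connecting tubule (1.27 ± 0.26) and stroma 1 both stages passed it, and the calls held with each sample left out. The calls in the distal convoluted tubule (1.28 ± 0.27) and intercalated cells (1.21 ± 0.33) were lost without either P0 sample, with edgeR adjusted p-values of 0.0724 and 0.3, and 0.378 and 0.423, and without P56 sample 2 (0.07 and 0.0671). That in intercalated cells was also lost without the P21 sample (0.121).

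Of the 5 peaks of the Hoxd11 window, 4 were open in more nephron progenitors at P0 than in adult. The peak 2324 bp upstream of the start codon was open in 20.1% of nephron progenitors at P0 and in 0.629% in adult. The peak over the start codon, which holds the Hoxd11 sequence printed above, was open in 19.5% and 4.41%, and a peak 1204 bp downstream in 10.8% and 3.28%. The peak farthest downstream, 4125 bp from the start codon, went the other way, with 3.64% and 4.64%. Hoxd12, the next gene upstream, was at 44.5 and 48.4 CPM in nephron progenitors at P0 and 0, 3.05 and 2.71 CPM in adult, from 0, 1 and 1 open calls (edgeR adjusted p without the filter = 3.7e-14), and the pair passed the filter through P0 alone. Pooled over samples, Hoxd12 held 655 open calls at P0 (46.6 CPM) and 2 in adult (2.15 CPM) in nuclei of this label. Its 3 peaks were open in 8.37%, 7.48% and 16.4% of nephron progenitors at P0 and in 0.629%, 0.37% and 0.0% in adult, where 3 open calls among 195 nuclei allow up to 1.54%. Hoxd12 was in the loop of Henle at 21 and 21.8 CPM at P0 and 3.84, 3.87 and 5.48 CPM in adult (2.18 ± 0.28, edgeR adjusted p = 1.2e-04). The latter call held with each sample left out. That in endothelial cells, which passed the filter through P0 alone, was lost without either P0 sample (edgeR adjusted p = 0.415 and 0.227) or either P56 sample (0.0861 and 0.13).

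Hoxa11 was called higher at P0 in 5 of 8 cell types. In the connecting tubule it was at 17.1 and 31.5 CPM at P0 and 8.16, 5.03 and 1.21 CPM in adult, from 3, 5 and 2 open calls (edgeR adjusted p without the filter = 3.6e-05). It passed the filter through P0 alone, and the call was lost without P0 sample 2 (0.0557). In the loop of Henle it was at 28.8 and 26.6 and 14.7, 5.28 and 2.97 CPM (2.11 ± 0.42), a call that held with each sample left out. Stroma 2, its highest adult cell type, gave no call, with 31 and 25.7 CPM at P0 and 41, 35.1 and 45.6 CPM in adult (-0.43 ± 0.17, edgeR adjusted p = 0.0576). In PCT the call (1.36 ± 0.33) was lost without either P0 sample (edgeR adjusted p = 0.126 and 0.103). Hoxc11 was higher at P0 in nephron progenitors (37.8 and 35.3 against 4.32, 21.3 and 19 CPM, the latter from 1, 7 and 7 open calls, edgeR adjusted p without the filter = 0.00154), where it passed the filter through P0 alone. Its level in the loop of Henle was 27.6 and 25.6 against 6.4, 7.04 and 9.36 CPM (1.72 ± 0.25), a call that held with each sample left out.

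Hoxc4 lies at the other end of its cluster. It was called higher at P0 in 6 of 10 cell types. In nephron progenitors it was at 101 and 89.4 CPM at P0 and 21.6, 15.2 and 10.9 CPM in adult, from 5, 5 and 4 open calls (edgeR adjusted p without the filter = 8.8e-18), and it passed the filter through P0 alone. Its intronic peak printed above was open at P0 and in none of the adult nuclei of that label. In stroma 2 Hoxc4 was at 48.4 and 50.8 CPM and 25, 12.8 and 19.3 CPM (1.55 ± 0.19, edgeR adjusted p = 3.0e-05). The calls in the loop of Henle and stroma 2 held with each sample left out, and that in principal cells, through P0 alone, was lost without either P0 sample (edgeR adjusted p = 0.145 and 0.0759). Hoxc8 was higher at P0 in nephron progenitors, with 38.7 and 37.4 CPM against 21.6, 6.09 and 5.43 CPM, the latter from 5, 2 and 2 open calls (edgeR adjusted p without the filter = 3.2e-06). Hoxc13 was higher at P0 in stroma 1, with 31.1 and 32 CPM against 3.4, 3.36 and 7.45 CPM, the latter from 1, 1 and 4 open calls (edgeR adjusted p without the filter = 1.2e-07). Both passed the filter through P0 alone.

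**Figure D5:**
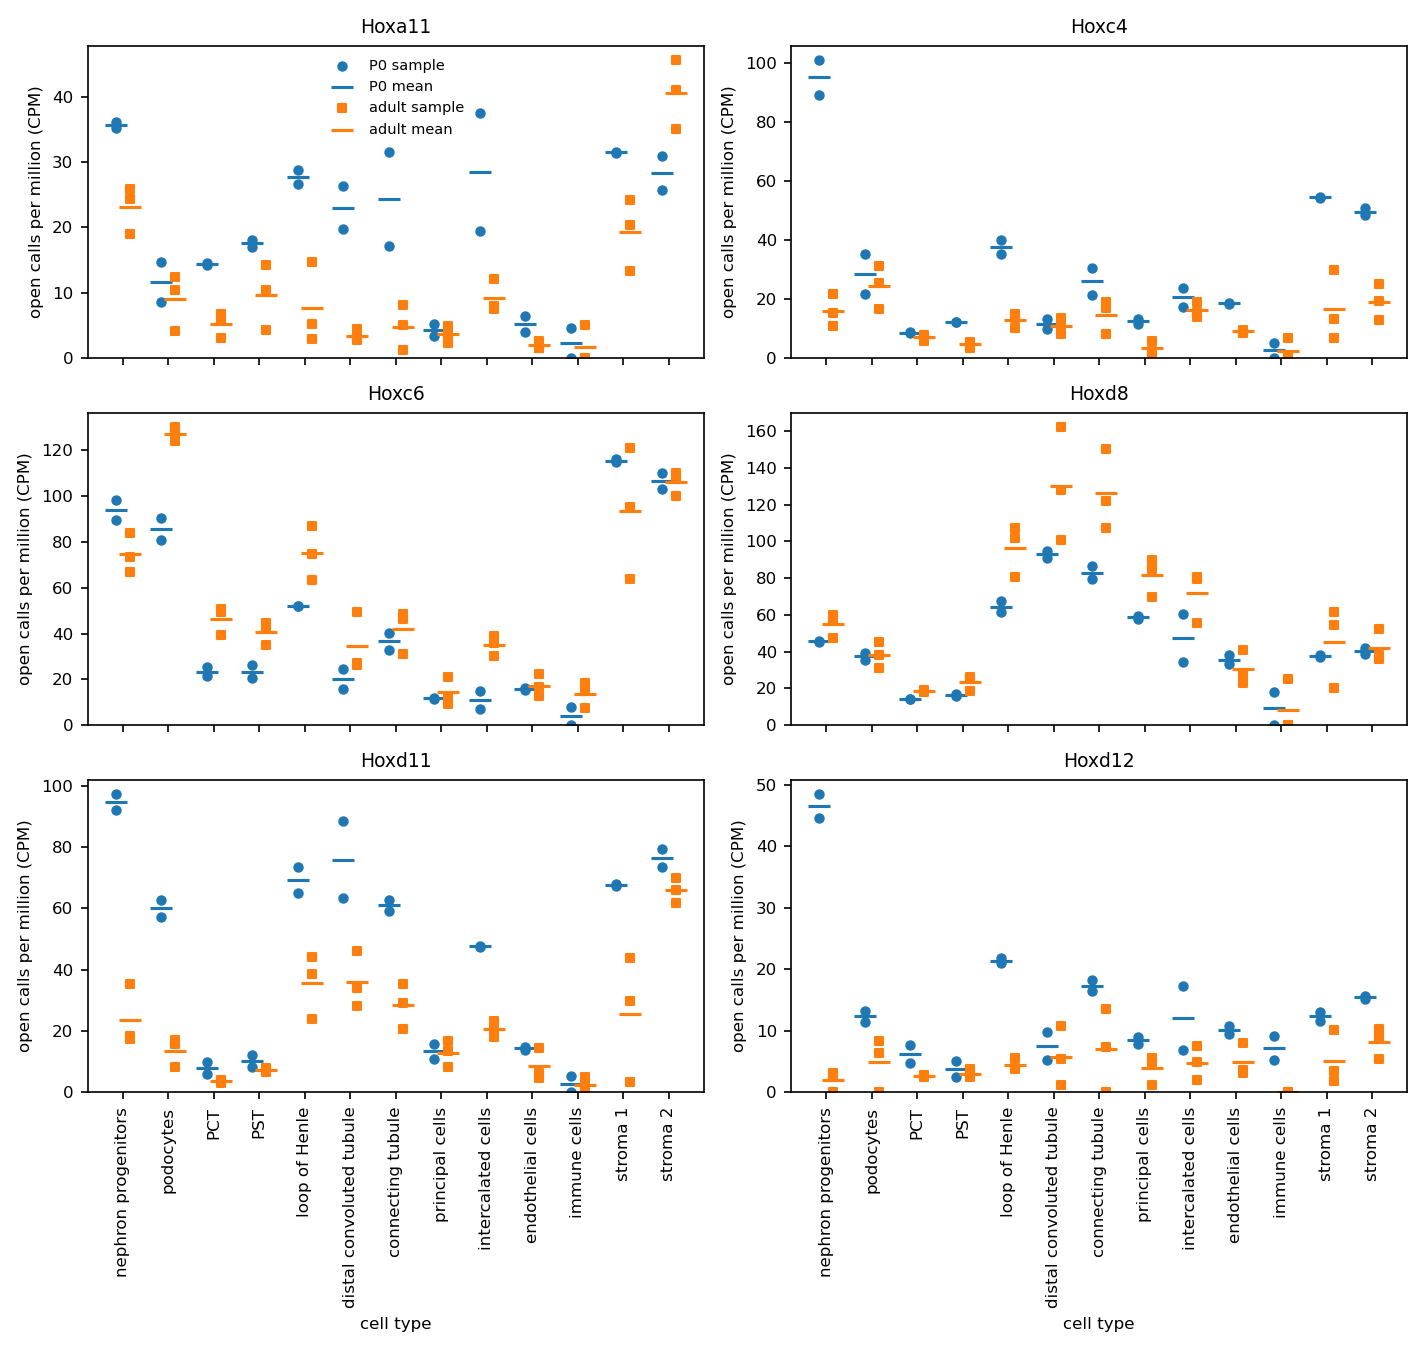
Gene activity in CPM (y axis) of Hoxa11, Hoxc4, Hoxc6, Hoxd8, Hoxd11 and Hoxd12 in 13 cell types (x axis), with 1 point per sample (P0 and adult) and the mean of each stage. In nephron progenitors the P0 points of Hoxc4, Hoxd11 and Hoxd12 lie above all adult points, and in PCT the adult points of Hoxc6 lie above both P0 points.

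Nephron progenitors, the loop of Henle and stroma held most of the calls higher at P0 by number, though the share of members called in stroma 2 equalled that of all genes. In nephron progenitors 13 of 29 members tested were called higher at P0 (20.9% of all genes) and 4 higher in adult (18.5%). Whether the P0 and adult nuclei of this label are the same kind of cell was not tested. The 13 were 6 Hoxc, 5 Hoxd and 2 Hoxa genes, and the 4 were Hoxa5, Hoxa10, Hoxb6 and Hoxb9. In the loop of Henle the counts were 13 of 37 (28.4%) and 6 (23.0%), in stroma 1 15 of 30 (15.5%) and 0 (13.3%), and in stroma 2 7 of 35 (20%) and 1 (16%). Of the calls higher at P0, 8 of the 13 in nephron progenitors, 2 of the 13 in the loop of Henle and 5 of the 15 in stroma 1 passed the filter through P0 alone, and none of the 7 in stroma 2. The median log2 difference of the tested members was 0.45 in nephron progenitors, 0.19 in the loop of Henle, 0.51 in stroma 1 and 0.25 in stroma 2, against -0.02, 0.02, -0.02 and -0.01 over all genes.

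In proximal tubules more members were called higher in adult than at P0. In PCT 3 of 36 members were higher at P0 (15.1% of all genes) and 8 higher in adult (12.1%), and in PST 0 of 32 (7.81%) and 4 (5.48%). Of these 12 adult calls, that of Hoxc6 in PCT alone held with each sample left out, and the difference from the other cell types was not tested. Hoxc6 was at 25.2 and 21.5 CPM in PCT at P0 and 49.3, 39.2 and 50.5 CPM in adult (-1.09 ± 0.17, edgeR adjusted p = 0.00169), with all adult samples above both P0 samples and the call held with each sample left out. With peaks from 2 kb before to 500 bp past the gene start the call was lost (edgeR adjusted p = 0.0858), as it was after thinning (0.0771) and with peaks near the start codon alone (0.411). Hoxd4 rose in adult PST from 44.8 and 37.2 CPM to 72.1, 88.5 and 92.4 CPM (-1.15 ± 0.21), a call lost without either P0 sample (edgeR adjusted p = 0.0763 and 0.127), with the window at the gene start (0.574) and after thinning (0.819). Hoxa5 was in the loop of Henle at 23.4 and 27.4 CPM at P0 and 44.1, 42.3 and 47.7 CPM in adult (-0.85 ± 0.17, edgeR adjusted p = 0.00172), which held with each sample left out and was lost after thinning (0.457). In nephron progenitors the Hoxa5 call, which passed the filter through adult alone, was lost without any 1 of 4 samples, with edgeR adjusted p-values of 0.255 and 0.175 without P0 sample 1 or 2, 0.278 without P21 and 0.131 without P56 sample 2.

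The remaining cell types gave few stage calls. The counts higher at P0 and higher in adult were 5 and 1 of 31 in the connecting tubule (all genes 16% and 9.97%), 2 and 0 of 24 in the distal convoluted tubule (5.23% and 1.6%), and 2 and 3 of 28 in principal cells (18.1% and 12.5%). They were 1 and 0 of 24 in intercalated cells (1.67% and 0.504%), 4 and 0 of 29 in endothelial cells (14.3% and 11%), and 2 and 1 of 24 in podocytes (6.12% and 6.53%). In immune cells 2 members could be tested. In principal cells Hoxa9 was at 9.71 and 11.3 CPM at P0 and 29.4, 10.5 and 33.1 CPM in adult (-1.20 ± 0.34), groups that overlap, and the call was lost without either P0 sample (0.187 and 0.113 as edgeR adjusted p) or P56 sample 2 (0.267). Calls of small size were lost likewise for Hoxc6 in podocytes (-0.58 ± 0.17, without P0 sample 1 or 2 or P56 sample 1, with edgeR adjusted p = 0.179, 0.103 and 0.0717), Hoxd8 in the connecting tubule (-0.51 ± 0.18, without P0 sample 1 or 2, P21 or P56 sample 2, with 0.155, 0.267, 0.109 and 0.0658) and Hoxa10 in stroma 2 (-0.50 ± 0.13, without P0 sample 1 or 2, with 0.159 and 0.144).

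Apart from Hoxd12 and Hoxc13, described above, the genes of groups 12 and 13 had low sums. Hoxc12 passed no filter and averaged 0.325 ± 0.00626 CPM per kb at P0. Hoxb13 was tested between stages in the loop of Henle alone, with 3.07 and 4.17 CPM at P0 (13 and 21 open calls) and 1.92, 0.352 and 0.913 CPM in adult (3, 1 and 4 open calls). Hoxa13 was at 7.79 and 4.96 CPM there (33 and 25 open calls) and 1.28, 2.47 and 1.83 CPM in adult (2, 7 and 8 open calls). Both passed the filter through P0 alone, and without it the edgeR adjusted p was 0.0164 for Hoxb13 and 0.00807 for Hoxa13. Hoxd13 gave no stage call in the 3 cell types tested.

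Genes that work with Hox genes were counted in the same fits, where 13.9% of the pairs of all genes were higher at P0 and 10.7% higher in adult. Here too a low gene passes the filter mainly where 1 stage is high. Pairs of these lists are not split by that filter, and no counts without it are given. Their counts and differences, and that of Six2 above, therefore describe the pairs tested. Of the 9 TALE cofactors (Pbx, Meis and Pknox genes), 40 of 109 pairs (36.7%) were called higher at P0 and 11 (10.1%) higher in adult, with Meis1 (2.91 ± 0.26) and Meis2 (2.67 ± 0.22) largest in nephron progenitors. Of 5 partners and targets of the group 11 genes in the kidney mesenchyme (Eya1, Pax2, Six2, Gdnf and Itga8), 27 of 51 pairs (52.9%) were higher at P0 and 3 (5.88%) higher in adult. Gdnf, the ligand that draws out the ureteric bud, differed by 2.78 ± 0.36 and Eya1 by 2.21 ± 0.27 in nephron progenitors. The 17 Polycomb, Trithorax and Ctcf genes leaned to adult, with 7 of 215 pairs (3.26%) higher at P0 and 45 (20.9%) higher in adult, among them the Polycomb subunit Cbx7 (-1.2 ± 0.16 in nephron progenitors). Its relative Cbx2 was higher at P0 there (1.3 ± 0.36). Of the 10 genes that flank the Hox clusters, 14 of 104 pairs (13.5%) were higher at P0 and 6 (5.77%) higher in adult. The 6 ParaHox and Cdx genes, relatives outside the clusters, gave 7 and 1 of 15 pairs.

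Between cell types these lists were mixed. Over all genes 21.1% of pairs were higher and 16.1% lower at P0, and 17.8% and 14.7% in adult. At P0 the TALE cofactors gave 38 of 117 pairs higher (32.5%) and 27 lower (23.1%), and the group 11 partners 23 (35.4%) and 19 (29.2%) of 65. The Polycomb, Trithorax and Ctcf genes gave 37 (16.7%) and 38 (17.2%) of 221, the flanking genes 30 (23.1%) and 24 (18.5%) of 130, and the ParaHox and Cdx genes 9 (17.3%) and 5 (9.62%) of 52. In adult the TALE cofactors gave 26 (22.2%) and 33 (28.2%) of 117, the group 11 partners 15 (28.8%) and 9 (17.3%) of 52, the Polycomb, Trithorax and Ctcf genes 28 (12.7%) and 20 (9.05%) of 221, the flanking genes 21 (20.2%) and 18 (17.3%) of 104, and the ParaHox and Cdx genes 2 and 1 of 13. Meis1 was higher in stroma, by 1.64 ± 0.05 in stroma 1 at P0 and 2.43 ± 0.09 in stroma 2 in adult. Six2 led in nephron progenitors at P0 (2.59 ± 0.1), and Itga8, an integrin of the mesenchyme, led in stroma 2 at P0 (2.08 ± 0.04). Skap2, beside the Hoxa cluster, was higher in endothelial cells at P0 (1.11 ± 0.05) and in adult (0.77 ± 0.09).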

How the data were processed

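Nuclei of 5 whole mouse kidney samples (2 P0, 1 P21, 2 P56) were profiled by snATAC-seq. The authors aligned reads to mm10 (GRCm38) with Cell Ranger ATAC (version 1.1.0), kept nuclei by fragment number, mitochondrial share and promoter share, clustered them with SnapATAC and called peaks with MACS2. The deposited matrix holds counts of 0 or 1 (open or not) for 28316 nuclei and 300755 peaks, without normalization, and the deposited metadata give each nucleus its sample and cluster. Of 27834 distinct barcodes, 477 occurred in more than 1 sample. Doublets were not searched for.

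Open calls were summed per gene window (GENCODE M21 gene body plus 2 kb upstream, 21911 protein-coding genes), sample and cell type, leaving out 664 nuclei of the clusters NP_LOH and PT_out. The 65 sums held 39 to 2459 nuclei. Sums were tested with edgeR (version 4.0.16; TMM, filterByExpr with min.count 10 and min.total.count 15, quasi-likelihood test, Benjamini-Hochberg threshold of 0.05 over all genes of a contrast). Stage fits had no covariate, and cell type fits had the sample as a block. SE is the log2 difference divided by the square root of F. Alternatives were DESeq2 (version 1.42.0), other windows, thinning to 1000 open peaks (811 nuclei below that were left out), a minimum of 50 nuclei, and leaving out samples. The scripts were tested on simulated counts. Intervals (95% Wilson) and floors (3 open calls) cover counting error only.

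Members and gene lists were chosen with earlier results of these data known, and 1 gene of the list of group 11 partners is not reported here and was left out of its counts. Genes were named by a fixed rule: in each cluster the 2 highest members per kb and the lowest, for each cell type the largest calls between stages in each direction and the largest higher call against the other cell types at P0 and in adult, the group 11 genes, Hoxb7, Hoxd8, Hoxc6, Hoxc8, Hoxc9 and Hoxd10, and groups 12 and 13. Other members were named after their values were seen.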

Additional observations from a re-analysis of the deposited data

Results flagged for a closer look

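Members of the Hox clusters were called higher at P0 in one cell type and higher in adult in another, with samples that did not overlap between stages in either. Over all genes 13.9% of pairs were called higher at P0 and 10.7% higher in adult. How many of all genes have calls in both directions, or samples without overlap, was not counted. Whether the differences between the cell types hold was not tested. With each sample left out in turn, of the calls below only those in nephron progenitors of Hoxb9, Hoxc5 and Hoxd3 held throughout, so none of these 5 genes kept calls in both directions. Hoxb9 was higher at P0 in endothelial cells (log2 difference 0.78) and higher in adult in nephron progenitors (-0.74) and the loop of Henle (-0.68). In podocytes Hoxb9 had means of 42.3 CPM at P0 and 17.4 CPM in adult. That pair passed the filter on low counts through P0 alone, so it had to be high at P0. Its fitted log2 difference (1.06) is therefore not taken as part of this pattern. Hoxc5 was higher at P0 in nephron progenitors (0.79) and stroma 1 (0.61) and higher in adult in PCT (-0.68). Hoxc9 went likewise, with 0.74 in nephron progenitors, 0.51 in stroma 1 and -0.58 in PCT. Hoxd3 was higher at P0 in nephron progenitors (1.05), the distal convoluted tubule (0.68) and the loop of Henle (0.45) and higher in adult in PCT (-0.71) and PST (-1.10). Hoxd4 was higher at P0 in nephron progenitors (0.60) and higher in adult in PCT (-0.75) and PST (-1.15). The windows of Hoxd3 and Hoxd4 share 10 peaks and those of Hoxc5 and Hoxc9 overlap, so these are not independent.

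The 2 clusters outside the comparisons held Hox signal above the level that 3 open calls give. In NP_LOH (218 nuclei) the Hoxa, Hoxb, Hoxc and Hoxd peaks summed to 483, 607, 179 and 135 CPM. In PT_out (446 nuclei) they summed to 482, 425, 208 and 218 CPM.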

How the results depend on the processing

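For the stage comparison, 95 pairs of a Hox gene and a cell type were called, 67 higher at P0 and 28 higher in adult. With DESeq2 the counts were 56 in all and 36 higher at P0, with a window of 2 kb before to 500 bp after the gene start 56 and 32 (24 higher in adult), and after thinning 14, 11 and 3. With a sample left out they ranged from 31 to 129 in all, 24 to 63 higher at P0 and 4 to 66 higher in adult, the last without P56 sample 1. The replicate numbers of the titles tie no animals together, and the deviations of samples with the same number correlated at 0.05 to 0.30. With the replicate block, 86 pairs were called, 58 and 28. For cell types at P0, thinning gave 143 calls (115 higher, 28 lower) in place of 293. In adult it gave 116 (78 and 38) in place of 213, peaks of only 1 gene window gave 86 higher calls, and the window at the gene start gave 54 lower calls. Leaving out an adult sample gave 162 to 178 calls, 106 to 121 higher and 50 to 69 lower. The share of higher calls went from 67.9% to 80.4% with thinning at P0, and from 70.5% to 57.1% for the stage comparison with the window at the gene start, 48.8% without P56 sample 1 and 88.9% without P0 sample 2. Under the other alternatives each of these counts stayed within 1.5 times. The values that changed sign were those between stages for Hoxa10 in stroma 2 (0.31 with the window at the gene start) and Hoxd8 in the connecting tubule (0.08 after thinning). The cause was not tested. Of the named differences, 337 values under other alternatives and 94 with a sample left out kept their direction and side of the threshold, and 50 and 37 kept their direction but not the call. At P0, 24 of 38 members had the same leading cell type in both samples, and 11 did by the share of thinned nuclei. The MEIS motif was in 19.9% of whole Hox peaks against 32.4% of all whole peaks. Thinning to 1000 open peaks lowers the counts tested, and with 2 P0 samples leaving one out leaves a single sample whose spread is taken from the adult samples.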
